A study of Mus musculus with 8 samples.

Results

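The proteasome genes of mouse satellite cells were followed under sal003, a compound that blocks removal of phosphate from the translation factor eIF2α. Members were all genes of the count table whose symbol is Psm followed by a letter from a to g and a number, which takes in the subunits of the core and regulatory particles, the activators, the inhibitor and the assembly chaperones. This gave 49 of the 39017 genes in the table. Of these, 47 had enough counts to be tested, and Psma8 and Psmb11, the alpha subunit of the testis and the catalytic subunit of the thymus, had no count in any library.

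The proteasome degrades proteins that carry ubiquitin chains. Its core is a stack of rings, in which outer alpha rings gate a chamber lined by beta subunits, 3 of them catalytic. A regulatory particle caps the core: its base holds a ring of ATPases that unfold the substrate, and its lid holds the enzyme that removes the ubiquitin chain. In immune settings the catalytic subunits are exchanged for induced ones, and other caps can replace the regulatory particle. In muscle, the ubiquitin-proteasome pathway is known for the breakdown of myofibrillar proteins during wasting.

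Satellite cells are the stem cells that repair skeletal muscle. Those used here came from the diaphragm and abdominal muscle of adult Pax3GFP/+ mice, in which 1 Pax3 allele carries the green fluorescent protein. They were plated at 7500 cells per 35 mm plate and cultured for 4 days in DMSO (4 libraries) or 10 µM sal003 (4 libraries), so that both groups carried the reporter and differed by the compound. The labels do not say whether the libraries of a group came from separate animals or cultures, and the p-values therefore measure only the spread between these libraries. Levels are CPM (counts scaled to a common library size) after TMM scaling, which assumes that most genes do not differ between libraries, and differences are log2 fold changes of sal003 over DMSO with their SE from edgeR's quasi-likelihood test. A gene was called higher or lower at a Benjamini-Hochberg adjusted p below 0.05 over the 15816 genes tested.

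Totals ranged from 32753929 to 40234107 counts per library. DMSO replicate 2 stood apart, with 14437 genes detected against 16561 to 18076 in the other libraries and a Spearman correlation of at most 0.949 with its group, where other pairs within a group reached at least 0.977. The satellite cell markers Pax7, Pax3, Myf5 and Myod1 were counted in all 8 libraries. Desmin (Des) and M-cadherin (Cdh15), which mark the myogenic lineage, fell by 1.33 and 0.92 log2 units (edgeR adjusted p = 7.22e-09 and 6.11e-06), and Pax7 rose by 0.43 (adjusted p = 0.00539). Pax3, Myf5 and Myod1 had estimates of 0.33, 0.38 and -0.0064 and were not called. The 6 muscle markers summed to between 3828 and 4400 CPM in DMSO and between 2196 and 2421 CPM in sal003. Des alone had a mean of 2941 CPM in DMSO and 1171 CPM in sal003, so the sum mainly follows Des. The part of these shifts in the results below was not tested. The 7 markers of leukocytes summed to 2.36 to 5.82 CPM in DMSO and 2.16 to 4.56 CPM in sal003, with Ptprc and Lyz2 at 0 throughout, the 4 endothelial markers to 0.890 to 4.29 and 2.75 to 6.04 CPM, and the 5 fibro-adipogenic markers to 0.3195 to 5.55 and 1.04 to 2.96 CPM, with Dcn and Lum at 0.

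Most proteasome genes, like most genes tested, were not called, which does not show that they were unchanged. Those past the test were mainly lower in sal003 under TMM scaling but not by total counts, where 5 were higher and 1 lower. The 8 lower members were the catalytic subunits Psmb5 and Psmb7, the ATPases Psmc1 and Psmc3, the ubiquitin receptor Psmd4, the lid subunits Psmd6 and Psmd8 and the chaperone Psmd10. Psmd14, the deubiquitinase of the lid, was the 1 higher member, and 38 members were not called. Called members were 19.1% of those tested against 22.7% of all genes tested, higher members 2.13% against 10.6%, and lower members 17.0% against 12.2%. The median log2 fold change was -0.12 over the 47 members and -0.0034 over all genes, and 30 members had a negative and 17 a positive estimate. Libraries of the 2 groups did not overlap at 10 members (21.3%), 9 of them lower, against 26.8% of all genes. Without DMSO replicate 2, 2 members were higher and 7 lower. In bulk RNA, fewer cells of a type and less RNA per cell cannot be told apart.

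**Figure D1:**
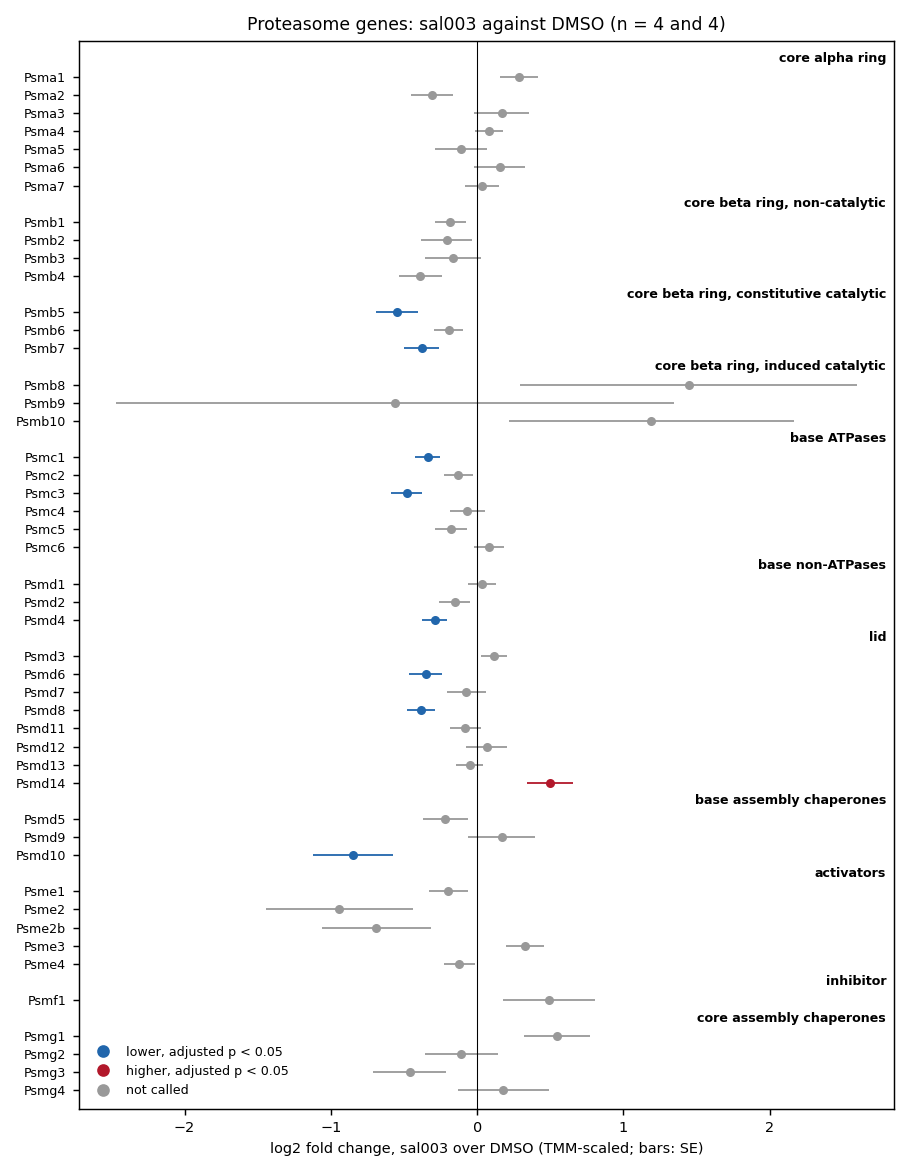
Log2 fold change of sal003 over DMSO (x axis) for each of the 47 tested members with TMM scaling, grouped by role, with SE bars; blue points are lower, red higher and grey not called at an edgeR adjusted p below 0.05. The 8 blue points lie between -0.85 and -0.29 (by total counts only Psmc3 of these stayed called), and the red point, Psmd14, lies at 0.50. The alpha ring holds no coloured point, and neither do the non-catalytic beta, induced catalytic, activator, inhibitor and core chaperone groups.

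The direction of the family depended on the scaling. TMM factors were 0.905 to 0.958 in DMSO and 1.04 to 1.07 in sal003, without overlap between the groups. When libraries were scaled by their total counts alone, the median log2 fold change of all genes shifted from -0.0034 to 0.17 and that of the members from -0.12 to 0.06. Positive estimates went from 17 to 27 of the 47 members, and the 10 that turned sign were not called with TMM. Members thus lay 0.12 below the median of all genes in both scalings, on the log2 scale. By total counts, 5 members were higher (18.2% of all genes were) and 1 lower (8.63% of all genes). Psmd14 and Psmc3 kept their calls, the other 7 lost theirs, and Psma1, Psmd3, Psme3 and Psmg1 became higher. Over all genes the calls split into 1671 higher and 1923 lower with TMM and into 2878 higher and 1365 lower by total counts.

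Summed over the 49 members, the level was 4209, 4404, 4730 and 4479 CPM in DMSO replicates 1 to 4 and 4098, 4018, 4136 and 4335 CPM in sal003 with TMM. These groups overlapped, at 4455 ± 215 and 4147 ± 135 CPM (SD, n = 4). As CPM of the plain library total, the same sum was 4022, 4214, 4277 and 4233 in DMSO and 4385, 4299, 4408 and 4521 in sal003. Here all sal003 libraries lay above all DMSO libraries, and the members took 0.419% ± 0.0113 of all counts under DMSO and 0.440% ± 0.00915 under sal003 (SD, n = 4). Neither scaling measures the amount of proteasome RNA per cell.

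**Figure D2:**
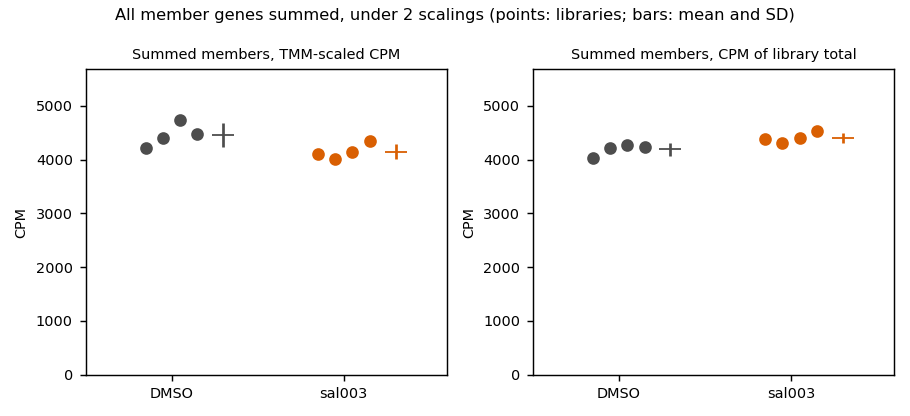
Summed level of all members in each library (points), with mean and SD beside them, as TMM-scaled CPM (left) and as CPM of the plain library total (right); both axes start at 0. The sal003 mean is below the DMSO mean on the left (4147 against 4455) and above it on the right (4403 against 4187).

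Per kilobase of annotated exon, subunit levels spread widely within the complex. In DMSO the 5 highest were the ATPases Psmc3 at 99.1 and Psmc1 at 85.0, the catalytic subunit Psmb6 at 83.9, the scaffold subunit Psmd2 at 82.7 and the ATPase Psmc5 at 82.0 CPM per kb. The medians by role were 66.3 CPM per kb for the 6 ATPases, 81.1 for the 3 other base subunits, 33.5 for the 8 lid subunits, 21.0 for the 7 detected alpha subunits, 21.2 for the 4 non-catalytic beta subunits and 58.1 for the 3 constitutive catalytic ones. Assembly chaperones, which leave or are degraded with the finished particle, were lower, at 9.79 CPM per kb for the base and 7.79 for the core, and the induced catalytic subunits lay at 0.134. Exon lengths join all annotated transcripts of a gene, so genes with long unused exons read low.

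**Figure D3:**
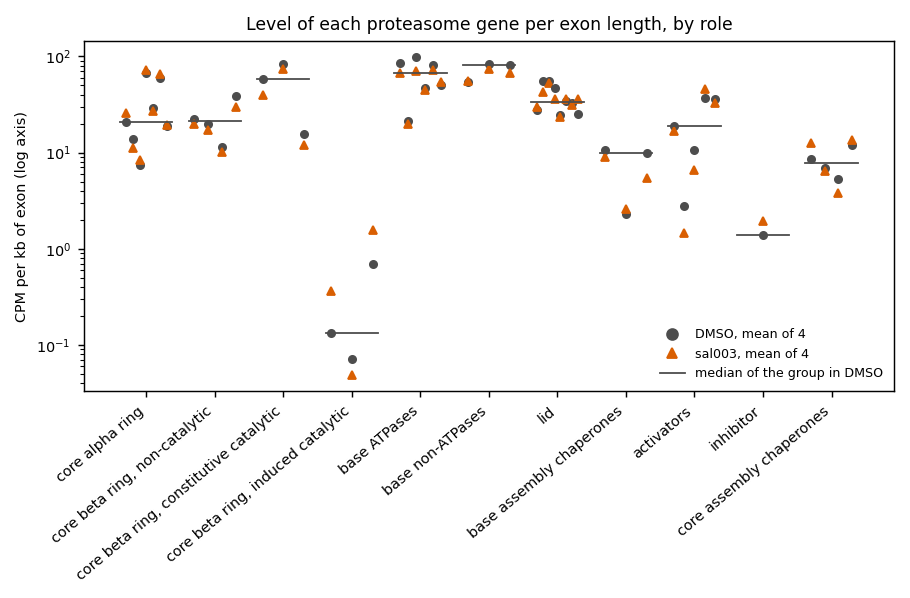
Level of each detected member per kilobase of exon (y axis, log scale) by role (x axis), as the mean of 4 DMSO libraries (grey circles) and of 4 sal003 libraries (orange triangles); lines are the DMSO median of each role. Induced catalytic subunits lie at or below 1.58 CPM per kb, while the base reaches 99.1 in DMSO.

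No alpha ring gene was called in either direction, where 22.7% of all genes tested were called. The 7 detected genes, which form the gate of the core, had estimates between -0.31 (Psma2) and 0.29 (Psma1), with SE of 0.10 to 0.19. Psma1 passed by total counts and without DMSO replicate 4, and no other alpha gene passed in an alternative. The 4 non-catalytic beta subunits, Psmb1 to Psmb4, all had negative estimates, between -0.39 and -0.17, and none was called. In Psmb4 the DMSO libraries read 66.6, 104, 70.2 and 61.3 CPM and the sal003 libraries 58.2, 56.5, 55.8 and 60.1 CPM. These groups did not overlap, but the difference of -0.39 ± 0.15 did not pass (edgeR adjusted p = 0.0750), though it did without DMSO replicate 4 and with a filter of 10 CPM in 4 libraries. Psmb1 passed with limma-voom.

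Of the 3 constitutive catalytic subunits, 2 fell in sal003 under TMM scaling. Psmb5, the subunit with chymotrypsin-like activity and the main target of bortezomib, read 56.4, 48.8, 61.4 and 42.5 CPM in DMSO and 33.1, 34.6, 34.4 and 40.8 CPM in sal003. All sal003 libraries were below all DMSO libraries. Psmb5 fell by 0.55 ± 0.14 log2 units (edgeR adjusted p = 0.0105), and by total counts the difference was -0.37 (adjusted p = 0.0620). The gene lies at chr14:54614119-54618022 on the minus strand of mm10 (ENSMUSG00000022193). Its exons share 54.1% of their 50-base stretches with other genes, mainly the processed pseudogene Gm3375, so its level is uncertain. Mir686 overlaps 12.1% of the Psmb5 exon sequence on the same strand and held 284 to 617 counts per library. Mir686 had an estimate of -0.52 ± 0.26 and was not called (edgeR adjusted p = 0.179).

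Psmb7, with trypsin-like activity, read 51.3, 47.5, 57.9 and 57.1 CPM in DMSO and 39.9, 42.5, 39.0 and 42.9 CPM in sal003, again without overlap. It fell by 0.38 ± 0.12 (edgeR adjusted p = 0.0328). This call was lost when any library but DMSO replicate 2 was left out (adjusted p = 0.0540 to 0.113). It was also lost by total counts (-0.20, adjusted p = 0.262), without the filter on low counts (0.0695) and with a replicate block (0.0637). Psmb7 (chr2:38588036-38644087, minus strand) shares 11.8% of its exon sequence with Nek6 on the opposite strand, which was not called. Psmb6, with caspase-like activity, read 153, 170, 166 and 139 CPM in DMSO and 138, 125, 131 and 155 CPM in sal003. Its groups overlapped, and the difference of -0.19 ± 0.10 did not pass (adjusted p = 0.203).

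The induced catalytic subunits were near the limit of detection. Psmb8, the counterpart of Psmb5, read 1.02, 0.0593, 0.411 and 0.316 CPM in DMSO and 1.47, 1.23, 1.15 and 1.08 CPM in sal003. It was the 1 member whose sal003 libraries all lay above DMSO, yet the difference of 1.44 ± 1.15 did not pass (edgeR adjusted p = 0.454). Psmb10, the counterpart of Psmb7, read 0.895, 0, 2.12 and 1.68 CPM in DMSO and 1.64, 3.18, 2.86 and 3.06 CPM in sal003, with overlapping groups (adjusted p = 0.466). Psmb9, the counterpart of Psmb6, read 0.0639, 0, 0.353 and 0.631 CPM in DMSO and 0, 0, 0.451 and 0.257 CPM in sal003, too little for a fold to be given.

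Per exon length, Psmb8 stood at 0.0323% to 0.482% of Psmb5 in DMSO and at 0.704% to 1.18% in sal003. The corresponding range for Psmb10 over Psmb7 was 0 to 7.33% in DMSO and 8.26% to 15.03% in sal003. Both ratios were higher in every sal003 library than in any DMSO library, as a description with no test, and their denominators are members that were lower with TMM. Psmb9 stayed at or below 0.233% of Psmb6 in all 8 libraries. Genes of interferon response and antigen presentation are often induced together with these subunits. With TMM, 0 of 11 such genes were higher (10.6% of all genes were) and 2 were lower (18.2% against 12.2% of all genes). The peptide transporter Tap2 fell by 0.57 ± 0.15 (edgeR adjusted p = 0.0105) and the class I heavy chain H2-K1 by 0.70 ± 0.20 (adjusted p = 0.0190). Another listed heavy chain, H2-D1, had an estimate of 0.33 (adjusted p = 0.296) and B2m one of -0.04, and neither was called. Over the 11 genes, 8 estimates were negative and 3 positive.

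In the base, Psmc1 and Psmc3 fell among the 6 ATPases, which pull the substrate into the core. Psmc1 read 160, 173, 162 and 162 CPM in DMSO and 127, 135, 130 and 127 CPM in sal003. The groups were narrow and did not overlap, and Psmc1 fell by 0.34 ± 0.08 (edgeR adjusted p = 0.00713; -0.16 and adjusted p = 0.199 by total counts). The gene (ENSMUSG00000021178, chr12:100110154-100123405, plus strand) shares 14.1% of its 50-base stretches with other genes, mainly the pseudogene Gm9575, to which 138 to 962 counts per library were assigned.

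Psmc3 read 296, 206, 268 and 264 CPM in DMSO and 180, 166, 195 and 198 CPM in sal003. The lowest DMSO library was replicate 2, still above all sal003 libraries. Psmc3 fell by 0.48 ± 0.11 (edgeR adjusted p = 0.00378), and it was the 1 member that stayed lower by total counts, at -0.31 (adjusted p = 0.0422). It lies at chr2:91054009-91066369 on the plus strand (ENSMUSG00000002102) and shares 8.25% of its exon sequence with Slc39a13 on the opposite strand, which was not called. Estimates for Psmc2, Psmc4, Psmc5 and Psmc6 lay between -0.18 and 0.08, and none was called.

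Among the other base subunits, Psmd4, a receptor that binds ubiquitin chains, read 215, 216, 243 and 237 CPM in DMSO and 189, 175, 199 and 182 CPM in sal003. The groups did not overlap, and Psmd4 fell by 0.29 ± 0.08 (edgeR adjusted p = 0.0199; chr3:95032694-95042614, minus strand). The call was lost by total counts (-0.11, adjusted p = 0.383) and when DMSO replicate 3 or 4 or sal003 replicate 1, 2 or 4 was left out (adjusted p = 0.0549 to 0.0799). The scaffold subunits Psmd1 and Psmd2 had estimates of 0.04 and -0.15 and were not called.

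The lid held calls in both directions. Psmd14, the metalloprotease that cuts ubiquitin chains off the substrate, read 54.1, 67.4, 76.3 and 87.6 CPM in DMSO and 94.5, 80.4, 100 and 128 CPM in sal003. The groups overlapped, since sal003 replicate 2 lay below DMSO replicate 4. Psmd14 rose by 0.50 ± 0.16 (edgeR adjusted p = 0.0326; chr2:61711694-61800376, plus strand), and by 0.67 by total counts (adjusted p = 0.00312). Leaving out DMSO replicate 1 or sal003 replicate 1, 3 or 4 ended the call (adjusted p = 0.0549 to 0.131).

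Psmd8, a structural subunit of the lid, read 127, 138, 163 and 145 CPM in DMSO and 111, 107, 111 and 109 CPM in sal003. Its groups did not overlap, and it fell by 0.39 ± 0.10 (edgeR adjusted p = 0.00770; -0.21 and adjusted p = 0.120 by total counts). The gene (ENSMUSG00000030591, chr7:29174188-29180701, minus strand) shares no 50-base stretch with another gene.

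Psmd6, another structural subunit of the lid, read 130, 162, 162 and 161 CPM in DMSO and 101, 119, 136 and 126 CPM in sal003. DMSO replicate 1 lay among the sal003 libraries. Psmd6 fell by 0.35 ± 0.11 (edgeR adjusted p = 0.0307; chr14:14112174-14120984, minus strand). It lost the call by total counts (-0.18, adjusted p = 0.283) and without DMSO replicate 3 or 4 or sal003 replicate 1, 2 or 4 (adjusted p = 0.0571 to 0.129). The lid subunits Psmd3, Psmd7, Psmd11, Psmd12 and Psmd13 had estimates between -0.08 and 0.12 and were not called. Under TMM scaling the called lid genes thus differed in sign, positive for Psmd14 and negative for Psmd6 and Psmd8. By total counts the signs stayed, but Psmd6 and Psmd8 were not called.

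**Figure D4:**
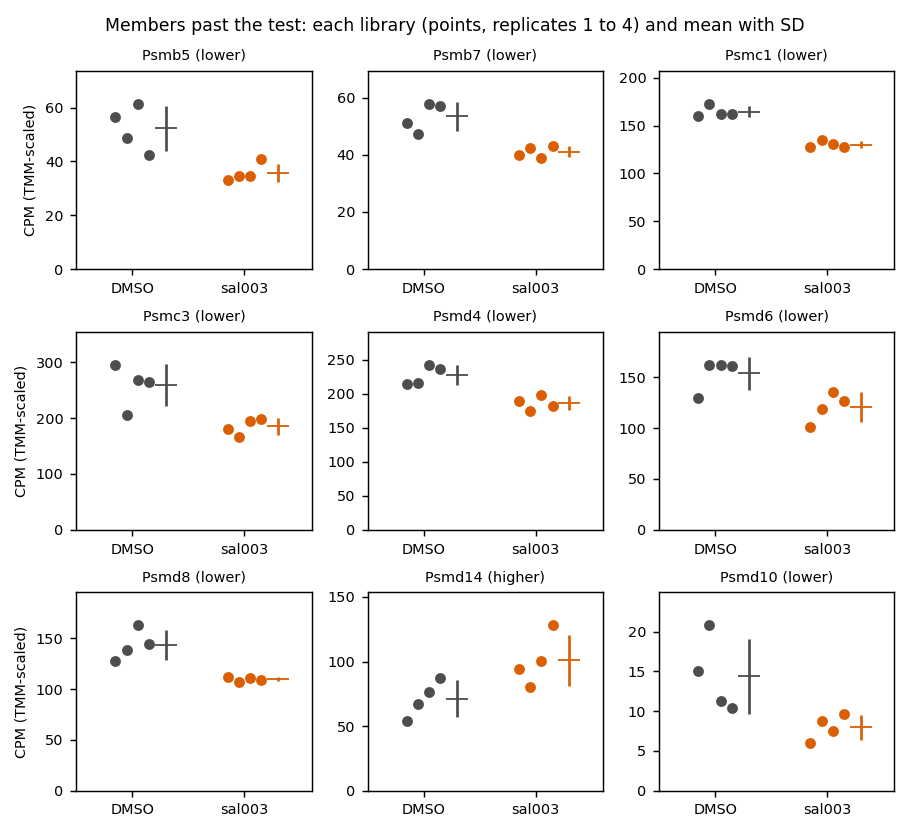
TMM-scaled CPM (y axis, from 0) of the 9 called members in each library (points, replicates 1 to 4 from left to right) with mean and SD beside them. In 7 panels the sal003 points lie below all DMSO points; Psmd6 and Psmd14 overlap.

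Of the chaperones that assemble the base, Psmd10 (gankyrin) read 15.1, 20.8, 11.2 and 10.4 CPM in DMSO and 5.98, 8.78, 7.52 and 9.60 CPM in sal003. These levels were low and did not overlap. Psmd10 fell by 0.85 ± 0.28 (edgeR adjusted p = 0.0353; chrX:140948429-140956728, minus strand), the largest fall among the called members. The call was lost by total counts (-0.68, adjusted p = 0.0864), with limma-voom (adjusted p = 0.0515) and without DMSO replicate 1 or 2 or sal003 replicate 1, 2 or 3 (adjusted p = 0.0634 to 0.116). Psmd5 and Psmd9, of the same group, had estimates of -0.22 and 0.17 and were not called. The core chaperones Psmg1 to Psmg4 had estimates between -0.46 and 0.55, with none called. Psmg1 passed by total counts, with limma-voom and without DMSO replicate 1.

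None of the alternative caps or their subunits was called (22.7% of all genes tested were). Psme1, of the interferon-responsive activator, read 44.4, 44.4, 42.7 and 36.2 CPM in DMSO and 37.5, 39.6, 37.4 and 31.8 CPM in sal003 (-0.20 ± 0.13, edgeR adjusted p = 0.363). The partner subunit Psme2 read 7.29, 4.45, 3.82 and 4.05 CPM in DMSO and 2.60, 3.39, 0.953 and 3.24 CPM in sal003. The Psme2 groups did not overlap, but the difference of -0.94 ± 0.50 did not pass (adjusted p = 0.220). Psme2b, a near copy of Psme2 with which it shares 68.7% of its 50-base stretches, read 12.9, 5.10, 6.52 and 10.9 CPM in DMSO and 8.92, 4.44, 4.36 and 4.22 CPM in sal003 (adjusted p = 0.229), and the division of reads between both genes is uncertain.

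Psme3, the nuclear activator, read 98.1, 143, 89.9 and 101 CPM in DMSO and 130, 133, 128 and 152 CPM in sal003. Only DMSO replicate 2 lay within the sal003 range. The difference was 0.33 ± 0.13 and was not called (edgeR adjusted p = 0.0932), but without that library it passed (adjusted p = 0.000227). It also passed by total counts (0.50, adjusted p = 0.0118), without the filter on low counts and with limma-voom. Psme4, a large activator linked to histone turnover, read 246, 278, 339 and 342 CPM in DMSO and 290, 267, 258 and 293 CPM in sal003 (-0.12 ± 0.11, adjusted p = 0.502), and its sign turned by total counts (0.06). The inhibitor Psmf1 read 10.0, 4.33, 8.32 and 13.2 CPM in DMSO and 15.7, 13.9, 11.5 and 9.22 CPM in sal003, with overlap (0.49 ± 0.31, adjusted p = 0.326).

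Several members share sequence with processed pseudogenes that have rows of their own, so that part of their reads may be counted elsewhere. The pseudogene Gm13835, which shares 15.4% of the 50-base stretches of Psma3, held 399 counts for every 100 of Psma3 over all libraries. Gm8394 held 119 counts for every 100 of Psma5, which shares 49.96% of its stretches with other genes. Gm5422 held 21.7 for every 100 of Psmd2, Gm6542 15.8 for every 100 of Psma4 and Gm9575 12.5 for every 100 of Psmc1. None of these 5 pseudogenes was called. Of the 49 members, 20 shared no 50-base stretch with another gene, and 14 overlapped an exon of another gene, 10 of them on the opposite strand. Psmc3ip, whose name contains that of a member but which encodes a recombination factor outside the proteasome, rose by 0.83 (edgeR adjusted p = 0.0106) and was not counted.

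Partner genes came from lists of bound factors, of control of subunit transcription, of ubiquitin genes and activating enzymes, and of shuttles and the p97 unfoldase. The 46 listed names, which included synonyms, gave 41 genes in the table. Of these genes 40 were tested: 1 was higher (2.50% against 10.6% of all genes), 7 were lower (17.5% against 12.2%) and 32 were not called. Their median log2 fold change was -0.09. Among the 12 bound factors, 0 were called (22.7% of all genes tested were). The ubiquitin receptor Adrm1, the deubiquitinases Usp14 and Uchl5 and the core maturation factor Pomp had estimates of -0.02, -0.03, 0.36 and -0.34, and the signs of Adrm1 and Usp14 turned by total counts. Pomp passed with the filter of 10 CPM in 4 libraries (edgeR adjusted p = 0.0461).

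Of the 10 tested genes that control subunit transcription, 4 were lower (40% against 12.2% of all genes) and 0 higher (10.6% of all genes were) with TMM. By total counts, Nfe2l1 alone of these 4 stayed lower. Nfe2l1 encodes a membrane-bound transcription factor that raises subunit transcription when proteasome activity is short. It read 401, 325, 354 and 341 CPM in DMSO and 237, 227, 247 and 237 CPM in sal003, without overlap. Nfe2l1 fell by 0.58 ± 0.09 log2 units (edgeR adjusted p = 9.51e-05), and by 0.41 by total counts (adjusted p = 0.00208). Its call held in all 17 alternatives.

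Ngly1, the glycanase that edits the Nfe2l1 protein, read 13.3, 20.1, 18.3 and 16.3 CPM in DMSO and 7.38, 9.21, 12.6 and 9.11 CPM in sal003, and fell by 0.83 ± 0.24 (edgeR adjusted p = 0.0174). Sel1l and Syvn1, which form the ubiquitin ligase that turns the same protein over at the endoplasmic reticulum, fell by 0.46 ± 0.11 and 0.60 ± 0.16 (adjusted p = 0.00549 and 0.0125). Sel1l read 146, 175, 156 and 148 CPM in DMSO and 109, 116, 97.3 and 133 CPM in sal003, and Syvn1 46.6, 34.7, 52.2 and 45.4 CPM in DMSO and 30.1, 25.1, 27.5 and 35.5 CPM in sal003. The last sal003 library of Syvn1 overlapped DMSO replicate 2. By total counts these 3 genes lost their calls narrowly (adjusted p = 0.0527, 0.0643 and 0.0579). Ngly1 also lost it without DMSO replicate 3 or sal003 replicate 1 or 2 (adjusted p = 0.0510 to 0.0643), and Syvn1 without DMSO replicate 3 (adjusted p = 0.0524).

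The related factor Nfe2l2, which responds to oxidative stress, read 48.5, 56.0, 67.5 and 58.7 CPM in DMSO and 57.9, 64.8, 58.9 and 58.7 CPM in sal003 (0.06 ± 0.12, edgeR adjusted p = 0.819). Ddi2, the protease that cuts the Nfe2l1 protein free, read 160, 155, 153 and 162 CPM in DMSO and 196, 149, 169 and 170 CPM in sal003. It was not called with TMM (0.12 ± 0.09, adjusted p = 0.448) and was higher by total counts (0.29, adjusted p = 0.0339). The small Maf genes, whose proteins pair with both factors, were not called, with estimates of 0.20 for Mafg, -0.78 for Maff and -0.24 for Mafk.

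Nfe2l1 and Nfe2l2 with a small Maf protein bind the antioxidant response element, whose core is TGACNNNGC. It was sought on both strands in RefSeq promoter windows (mm10 as GRCm38.p6, 250 bases before to 50 after the start), which matched 41 of the 49 members by symbol. A gene was counted if any of its windows held the letters. The core was in a window of 6 of the 41 members (14.6%), against 17.2% of 9680 tested genes with a window, and in 1 of the 7 called members with a window. The CCAAT box (CCAAT) was in 14 members (34.1% against 43.0% of tested genes) and the GC box (GGGCGG) in 23 (56.1% against 69.6%). Of the 44 single windows of members, 13.6% held the core, 31.8% the CCAAT box and 54.5% the GC box. Over all 32851 windows, of tested and untested genes, these shares were 12.4%, 37.4% and 35.7%. The windows before the start of Psmb5, which fell, and of Psmb6 and Psmd9, which were not called, are shown because these 3 hold the core on the strand of the gene. Psmc6, Psmd12 and Psme4 hold it on the opposite strand, in Psme4 from 7 bases before the start. They are 60 bases long, 5′ to 3′, with the core in capitals. The core begins 47, 9 and 31 bases before the RefSeq start in Psmb5, Psmb6 and Psmd9, and the last base shown is 13, 1 and 1 bases before it:
Psmb5 (chr14:54618008-54618067, minus strand): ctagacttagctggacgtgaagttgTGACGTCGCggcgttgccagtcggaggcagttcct
Psmb6 (chr11:70525297-70525356, plus strand): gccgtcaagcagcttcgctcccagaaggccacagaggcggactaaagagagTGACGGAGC
Psmd9 (chr5:123228130-123228189, plus strand): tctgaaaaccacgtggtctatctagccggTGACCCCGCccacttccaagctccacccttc

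A match of letters is a description and not a bound site. The 3 genes with the core on their own strand had estimates of -0.55, -0.19 and 0.17, and binding was not measured in these libraries.

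**Figure D5:**
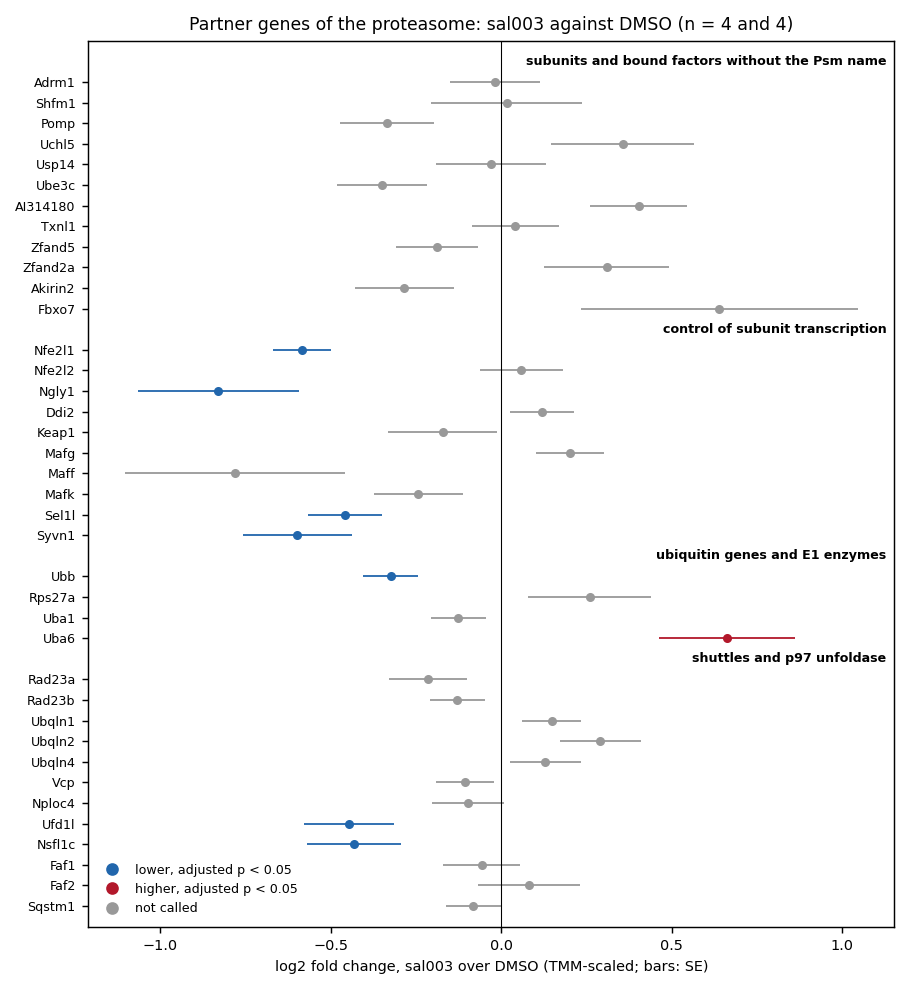
Log2 fold change of sal003 over DMSO (x axis) for 38 of the 40 tested partner genes by list with TMM scaling, with SE bars and colours by call at an edgeR adjusted p below 0.05. Blue points lie in 3 of the 4 lists, with Nfe2l1 at -0.58 and Ngly1 at -0.83, and the red point, Uba6, lies at 0.66; by total counts, Nfe2l1 was the 1 partner of the 7 that stayed lower.

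Of the ubiquitin genes and activating enzymes, the polyubiquitin gene Ubb read 368, 311, 363 and 351 CPM in DMSO and 268, 276, 291 and 276 CPM in sal003. It fell by 0.32 ± 0.08 (edgeR adjusted p = 0.00837), without overlap, and lost the call by total counts (-0.15, adjusted p = 0.216). Uba6, an activating enzyme for ubiquitin and Fat10, read 22.3, 24.4, 40.7 and 44.0 CPM in DMSO and 53.5, 45.7, 53.2 and 55.5 CPM in sal003. DMSO replicates 1 and 2 lay below replicates 3 and 4, and all were below sal003. Uba6 rose by 0.66 ± 0.20 (adjusted p = 0.0251), and by 0.84 by total counts, but not without DMSO replicate 1 or sal003 replicate 1, 3 or 4 (adjusted p = 0.0635 to 0.0703). Rps27a and Uba1 were not called.

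Among the shuttles and the p97 unfoldase, 2 of 12 were lower (16.7% against 12.2% of all genes), the p97 cofactors Ufd1l and Nsfl1c. The p97 cofactors Nploc4, Faf1 and Faf2 of the same list had estimates of -0.10, -0.06 and 0.08 and were not called. Ufd1l read 76.2, 95.01, 78.1 and 61.1 CPM in DMSO and 59.7, 60.9, 50.9 and 56.2 CPM in sal003, and fell by 0.45 ± 0.13 (edgeR adjusted p = 0.0225). Nsfl1c read 57.1, 53.6, 54.4 and 72.8 CPM in DMSO and 36.6, 48.0, 47.8 and 44.0 CPM in sal003, and fell by 0.43 ± 0.14 (adjusted p = 0.0343). Neither pair of groups overlapped. By total counts both calls were lost (adjusted p = 0.168 and 0.218). Ufd1l also lost its call without DMSO replicate 3 or sal003 replicate 3 or 4 (adjusted p = 0.0552 to 0.0871), and Nsfl1c without DMSO replicate 1 or 4 or any sal003 replicate (adjusted p = 0.0512 to 0.151). Vcp, which encodes p97 itself, read 223, 222, 220 and 215 CPM in DMSO and 219, 182, 200 and 217 CPM in sal003 (-0.11 ± 0.08, adjusted p = 0.456), with a positive sign by total counts (0.07).

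The members lie on 16 chromosomes, with 9 on chromosome 11 and 6 on chromosome 14. Psmb8 and Psmb9 are 9.96 kb apart on chromosome 17 in opposite orientation, and Psme1 and Psme2 5.91 kb apart on chromosome 14. In neither pair was a gene called.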

How the data were processed

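RNA sequencing counts of 8 libraries were analysed, 4 in DMSO and 4 in sal003. Per the labels' protocols, RNA was depleted of ribosomal RNA, made into stranded SMARTer libraries and sequenced on an Illumina MiSeq. The dose is 10 µM in the labels' design text and attributes, which is used here, though the treatment protocol gives another unit. The authors deposited whole-number counts per gene, with no row lacking a gene. The mm10 build, featureCounts 1.4.4, STAR 2.3.0e and Trimmomatic 0.32 are named, with no role, per the submitters' processing notes. How strand, multiple alignments and gene overlaps were treated in counting is not given in the sources used here. Of counts from 1 to 20, 75.6% to 83.3% were even per library, and the cause was not tested. With all counts divided by 2, 1 member was higher and 8 lower, the same members as in the main test.

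In R 4.3.3, edgeR 4.0.16 was used with filterByExpr (minimum count 10, total 15), TMM and a robust two-sided quasi-likelihood test with condition as the only term. The SE is the size of the log2 fold change over the square root of F. The script was also run on simulated counts whose levels and spread were taken from these libraries. Pairs of libraries within a group differed far beyond counting noise (chi-square per degree of freedom at least 22.8). Exon lengths, overlaps and shared 50-base stretches came from GENCODE M21, which held all 49 members, and promoters from RefSeq.

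The members, lists and tests were chosen with earlier results of these data known. The rule for named genes gave library values for called members, Psmb5 to Psmb10, the activators and the inhibitor, and named partner genes that were called or fixed by name. Values of the 5 pseudogenes, Psmb4 and Psmc3ip were added after they were seen. Alternatives were DESeq2 size factors, upper-quartile scaling, a filter of 10 CPM in 4 libraries or none, the Wald test of DESeq2 1.42.0, limma-voom (limma 3.58.1) with quality weights, counts divided by 2, a replicate block and leaving out each library. Scaling by total counts was added after seeing the data. Values of 2 partner genes are not reported here.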

Additional observations from a re-analysis of the deposited data

Results flagged for a closer look

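In 5 of 94 groups of 4 libraries (47 members in each condition), 1 library lay far from the other 3 by Dixon's criterion, which chance meets in about 1 in 20 groups. In sal003, Psma6 read 92.0 CPM in replicate 4 against 77.0 to 79.0 in the others, and Psmd7 read 141.8 CPM in the same library against 110.3 to 113.8. Psme2b read 8.92 CPM in sal003 replicate 1 against 4.22 to 4.44. In DMSO, Psmc4 read 77.6 CPM in replicate 2, the library that stands apart, against 106.7 to 110.9, and Psmd6 read 129.7 CPM in replicate 1 against 161 to 162.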

How the results depend on the processing

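The members' median log2 fold change was negative in 16 alternatives and reversed in the other, with libraries scaled by total counts (0.0562), where 5 members were higher and 1 lower. Without a filter 2 were higher and with limma-voom 3. Leaving out 1 library gave 0 to 2 higher and 4 to 7 lower members. Of the 9 called members, Psmb5, Psmc1, Psmc3 and Psmd8 kept their calls in all 16 alternatives other than total counts. Same-numbered libraries did not deviate together (r = -0.01 to 0.07, against at most 0.08 between other numbers). The main test used no pairing, but so few libraries cannot show whether the replicates were paired. With a replicate block 1 member was higher and 6 lower, without Psmb7 and Psmd10.

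By total counts, 10 of the 47 members turned from negative to positive, none of them called. Among the 34 members and partners followed gene by gene, signs reversed for some that were not called: by total counts Psme4 (0.0562), Adrm1 (0.159), Usp14 (0.143) and Vcp (0.0691), for Usp14 with limma-voom (0.147) and the replicate block (0.0104), and when 1 library was left out, for Psmb9 (range -1.59 to 0.354), Nfe2l2 (-0.00543 to 0.153), Adrm1 (-0.0797 to 0.0943) and Usp14 (-0.116 to 0.200). The cause was not tested. Genes near the detection limit, such as Psmb8 to Psmb10, had SE of 0.97 to 1.91, and no difference was detectable there.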
